A study of Mus musculus with 9 samples.

Results

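The 10 genes described here are the interleukin 1 family members and inflammasome components Il1a, Il1b, Il1rn, Il18, Casp1, Casp4, Nlrp3, Nlrc4, Pycard and Gsdmd, chosen by name from the 24318 genes listed in the deposited tables. All 10 were found in both tables. They were followed in a cultured mouse cell line, through 9 RNA-seq libraries made from polyA RNA, with 3 libraries in each of 3 groups. SE-BDEV cells were treated with extracellular vesicles from brain (BDEV), small particles with a membrane that cells shed, and SE, going by the series title, stands for status epilepticus, in which seizures do not stop by themselves. CON-BDEV cells were treated with the control vesicles from brain, and Vehicle cells with vehicle. Library names read EV Pilo for SE-BDEV, EV Saline for CON-BDEV and CON for Vehicle, and the labels do not spell these words out further. The dose, the time of exposure, and whether replicates are separate cultures are not given in the sources used here, so p-values cover the spread among the libraries at hand, and that spread may be technical. The comparisons ask whether either vesicle preparation changed RNA levels, and whether the preparations differed from each other.

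The labels disagree on the line: the design text has BV2 (mouse microglia), and each library's source and line are given as N2a (mouse neuroblastoma). Of 12 microglial and macrophage markers, 11 were matched by symbol and all 11 averaged at least 1 FPKM, a level in sequenced fragments that is corrected for transcript length and library size. The neuroblastoma and neuron markers Mycn, Th, Dbh and Stmn2 were listed at 0 in all 9 libraries, so the RNA goes against the N2a label. Summed microglial markers were 2437 to 2588 FPKM in SE-BDEV, 2376 to 2517 in CON-BDEV and 2364 to 2403 in Vehicle. The largest parts of that sum were Cd68 and Tyrobp, which averaged 740 and 712 FPKM over the 9 libraries. Within the list, Aif1 and Laptm5 were higher, and Cd14 lower, in every vesicle library than in every Vehicle library. The neuron and neuroblastoma list, of which Uchl1 and Elavl4 alone averaged at least 1 FPKM, summed to 97.4 to 106 FPKM in SE-BDEV, 101 to 110 in CON-BDEV and 75.8 to 79.8 in Vehicle. Most of that sum was Uchl1, with means of 97.0 FPKM in SE-BDEV, 100 in CON-BDEV and 73.7 in Vehicle. Astrocyte markers, of which 1 of 6 averaged at least 1 FPKM, summed to 35.7 to 39.8 in SE-BDEV, 36.9 to 40.5 in CON-BDEV and 44.2 to 45.2 in Vehicle. Nearly all of that sum was Aldoc. Neutrophil markers, of which 1 of the 5 matched (S100a8) averaged at least 1 FPKM, summed to 6.96 to 9.87 in SE-BDEV, 7.50 to 10.5 in CON-BDEV and 6.05 to 6.59 in Vehicle. Oligodendrocyte markers, of which 2 of 6 (Mbp and Cnp) reached that mean, summed to 11.8 to 12.5 in SE-BDEV, 10.8 to 13.4 in CON-BDEV and 13.9 to 14.1 in Vehicle. Endothelial markers, of which 1 of 4 reached it, summed to 42.5 to 47.0 in SE-BDEV, 35.8 to 44.2 in CON-BDEV and 35.2 to 40.3 in Vehicle. Nearly all of that sum was Flt1. None of 4 T and B cell markers reached a mean of 1 FPKM. The part of these markers in the results was not tested. Libraries held an estimated 29180000 to 33744000 fragments each.

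Interleukin 1 alpha and beta are inflammatory cytokines that microglia and macrophages make as precursors, and interleukin 1 receptor antagonist, encoded by Il1rn, occupies the same receptor without signalling. Interleukin 18 is a related cytokine. Sensors such as NLRP3 and NLRC4 assemble with the adaptor ASC, encoded by Pycard, into inflammasomes that activate caspase 1. Caspase 1 cuts the precursors of interleukin 1 beta and interleukin 18 and opens gasdermin D, the pore protein of pyroptosis, an inflammatory form of cell death. Mouse caspase 4, also called caspase 11, responds to cytosolic bacterial lipopolysaccharide and also cuts gasdermin D. These steps act on proteins, whereas the values here are RNA levels.

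Casp1 and Il1b were the members that passed the test in SE-BDEV, and Casp1 was the member that passed in CON-BDEV. Il1a lies beside Il1b on chromosome 2, with 54607 bases between their mm9 loci, and did not pass in any comparison. The 250 bases before the annotated start of these 3 genes are shown, 5′ to 3′ on the strand of the gene, so that the region before both members that rose can be read against that of the neighbour that did not pass. They come from RefSeq, build GRCm38.p6, at chr9:5298267-5298516 on the plus strand for Casp1, chr2:129371140-129371389 on the minus strand for Il1b, and chr2:129309973-129310222 on the minus strand for Il1a. Capitals mark every match, on either strand, to the motifs searched.
Casp1 promoter: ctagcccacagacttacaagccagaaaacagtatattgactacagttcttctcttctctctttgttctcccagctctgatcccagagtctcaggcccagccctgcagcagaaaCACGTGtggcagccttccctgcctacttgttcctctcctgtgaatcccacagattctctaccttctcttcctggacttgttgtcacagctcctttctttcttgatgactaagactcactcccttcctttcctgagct
Il1b promoter: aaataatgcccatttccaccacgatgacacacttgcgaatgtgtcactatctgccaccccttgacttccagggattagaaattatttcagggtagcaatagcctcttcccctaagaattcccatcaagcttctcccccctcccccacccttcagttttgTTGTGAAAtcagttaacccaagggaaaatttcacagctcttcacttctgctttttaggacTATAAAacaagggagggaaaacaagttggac
Il1a promoter: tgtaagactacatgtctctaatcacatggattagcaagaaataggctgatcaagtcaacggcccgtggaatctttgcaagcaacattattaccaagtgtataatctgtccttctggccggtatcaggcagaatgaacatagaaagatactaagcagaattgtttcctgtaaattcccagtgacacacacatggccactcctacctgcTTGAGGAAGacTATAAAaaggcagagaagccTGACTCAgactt

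The 250-base window of Casp1 held a single match, an E-box (CACGTG) at positions -137 to -132, counted back from -1 at the base before the start. The window of Il1b held a C/EBP match (TTNNGNAA) at -91 to -84 and a TATA box (TATAAA) at -31 to -26. The window of Il1a held a C/EBP match at -43 to -36, which overlaps a PU.1 match (GAGGAAG) at -41 to -35, together with a TATA box at -32 to -27 and an AP-1 match (TGANTCA) at -12 to -6. Il1a and Il1b thus both matched the C/EBP and TATA motifs, and Casp1 shared none of its matches with them. The C/EBP matches differed in their letters, TTGAGGAA in Il1a and TTGTGAAA in Il1b. Among 32851 RefSeq promoters cut to the same length, 6.02% held the E-box, 36.8% the C/EBP motif, 12.4% the TATA box, 10.6% the PU.1 motif and 6.75% the AP-1 motif. The NF-kB motif, held by 7.25% of promoters, was searched as well and matched in none of the windows of Casp1, Il1b and Il1a. It did match before Casp4 and Nlrp3. The C/EBP motif also matched before Casp4, Il1rn, Nlrc4, Nlrp3 and Pycard, so it was not particular to Il1a and Il1b. The PU.1 motif also matched before Nlrp3 and Pycard, the AP-1 motif before Il1rn, and the TATA box before Il18. Promoters of 9 of the 10 members were matched by symbol. Of these, 6 had a single window, and for the rest a match in any window was counted. Whether any of these motifs bears on the RNA changes was not tested.

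Across the 9 libraries the members covered a wide range of levels, which FPKM allows to be compared between genes because it is per length. Casp1 and Gsdmd stood highest, with Casp1 between 38.3 and 67.8 FPKM and Gsdmd between 30.2 and 35.8 FPKM. The cytokine Il1a came next, at 8.15 to 11.6 FPKM, followed by Casp4, Il1b and Nlrp3 with means over all libraries that lay between 5 and 7 FPKM. Il18 and Il1rn lay lower, and Nlrc4 stood close to 1 FPKM. Pycard was lowest, at 0.0936 to 0.231 FPKM. Neighbours in this order whose ranges over the 9 libraries overlapped were Il1a with Casp4, Casp4 with Il1b, Il1b with Nlrp3, and Il18 with Il1rn. The other neighbours did not overlap. These ranges pool the groups, so they include differences between treatments. Within each group Il1a lay above Casp4 without overlap. Il1b did not overlap Nlrp3 in SE-BDEV, and Il18 did not overlap Il1rn in CON-BDEV. Casp4 and Il1b overlapped in every group, so their order is not separated by their spread.

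**Figure D1:**
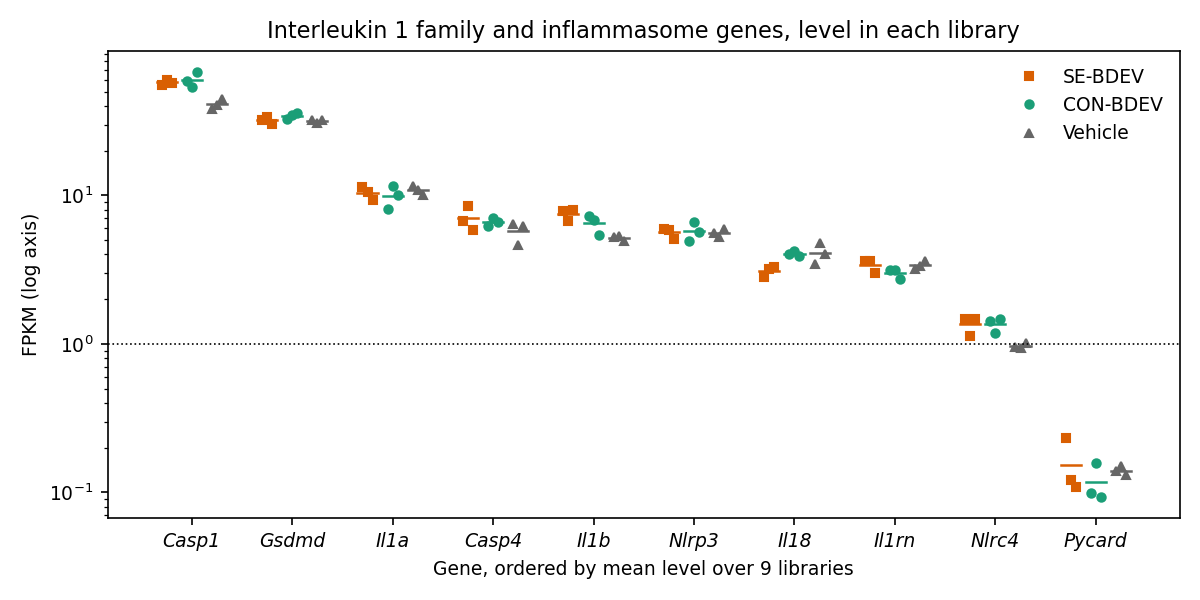
FPKM (log axis) of the 10 members in each library, with SE-BDEV, CON-BDEV and Vehicle side by side for each gene, points for libraries, bars for group means (n = 3 libraries each) and a dotted line at 1 FPKM, the minimum mean for testing. Casp1 and Gsdmd lie above 30 FPKM in every library, Pycard reaches at most 0.231 FPKM, and the Casp1 points of both vesicle groups lie above those of Vehicle.

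In SE-BDEV against Vehicle, Casp1 and Il1b rose and no member fell. The other 7 tested members did not pass, and Pycard was under the minimum mean of 1 FPKM. The 2 of 9 tested members called, both higher, stand against a background of 11.9% of all 10535 genes called (6.76% higher and 5.14% lower) at an adjusted p under 0.05. Without Vehicle replicate 1 the count was 3, with Il18 added at an adjusted p of 0.0460. Nlrc4 reached the minimum mean through the vesicle groups alone, and over the other 8 tested members the median log2 fold change was 0.013, against -0.00080 over all genes tested.

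In CON-BDEV against Vehicle, Casp1 rose and no other member passed. That is 1 of 9 tested members, beside 5.67% of all 10535 genes called (3.81% higher and 1.86% lower). The split over all genes was 401 higher and 196 lower, and 301 higher and 249 lower after quantile normalization. The median log2 fold change of the 8 members other than Nlrc4 was 0.072, against 0.0054 over all genes. In SE-BDEV against CON-BDEV no member passed, and 0 of 10532 genes did so by limma; 509 genes, 4.83%, and Il18 alone among the members had an unadjusted p under 0.05. Both comparisons with Vehicle share the same 3 Vehicle libraries, so their values are set side by side and are not independent of each other.

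Among the enzymes, Casp1 encodes caspase 1, the protease at the centre of the inflammasome. Its FPKM was 55.4, 60.3 and 57.1 in SE-BDEV, 58.8, 54.0 and 67.8 in CON-BDEV, and 38.3, 40.3 and 44.3 in Vehicle. Every vesicle library lay above every Vehicle library, and the vesicle groups overlapped each other. Casp1 averaged 57.6 ± 2.45 FPKM in SE-BDEV, 60.2 ± 6.97 in CON-BDEV and 41.0 ± 3.03 in Vehicle (SD, n = 3 each). On the log2(FPKM + 1) scale the fold change was 0.48 (standard error 0.0561, 95% interval 0.36 to 0.61, adjusted p = 0.000995) for SE-BDEV over Vehicle, a 1.40-fold difference on that scale. For CON-BDEV over Vehicle it was 0.54 (standard error 0.0827, 95% interval 0.35 to 0.73, adjusted p = 0.0110), or 1.45-fold. This second call was lost without Vehicle replicate 1 (adjusted p = 0.0514) and without Vehicle replicate 2 (adjusted p = 0.0507), at a similar fold change. In bulk RNA, more cells of a kind that express a gene and more RNA per cell cannot be told apart.

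Casp1 lies at chr9:5298517-5307281 in mm9, and Casp4 begins 1567 bases downstream at chr9:5308849-5336791. They are similar in sequence, and reads could have been divided between them in the authors' counting. Casp4 was 6.74, 8.47 and 5.88 FPKM in SE-BDEV, 6.26, 7.04 and 6.59 in CON-BDEV, and 6.40, 4.62 and 6.22 in Vehicle. The groups overlapped, apart from a single Vehicle library below all others. Its log2 fold change was 0.25 over Vehicle in SE-BDEV (adjusted p = 0.248) and 0.19 in CON-BDEV (adjusted p = 0.307).

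Gsdmd, at chr15:75692769-75697834 in mm9, encodes the pore protein that caspase 1 and caspase 4 cut. It was 32.1, 33.8 and 30.2 FPKM in SE-BDEV, 32.5, 34.9 and 35.8 in CON-BDEV, and 32.0, 30.8 and 32.3 in Vehicle. The CON-BDEV libraries stood just above the Vehicle libraries, and the SE-BDEV libraries overlapped both groups. The log2 fold change was 0.013 in SE-BDEV (95% interval -0.11 to 0.13, adjusted p = 0.885) and 0.11 in CON-BDEV (adjusted p = 0.200). Gsdmd rested on about 1773 to 2116 fragments per library.

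**Figure D2:**
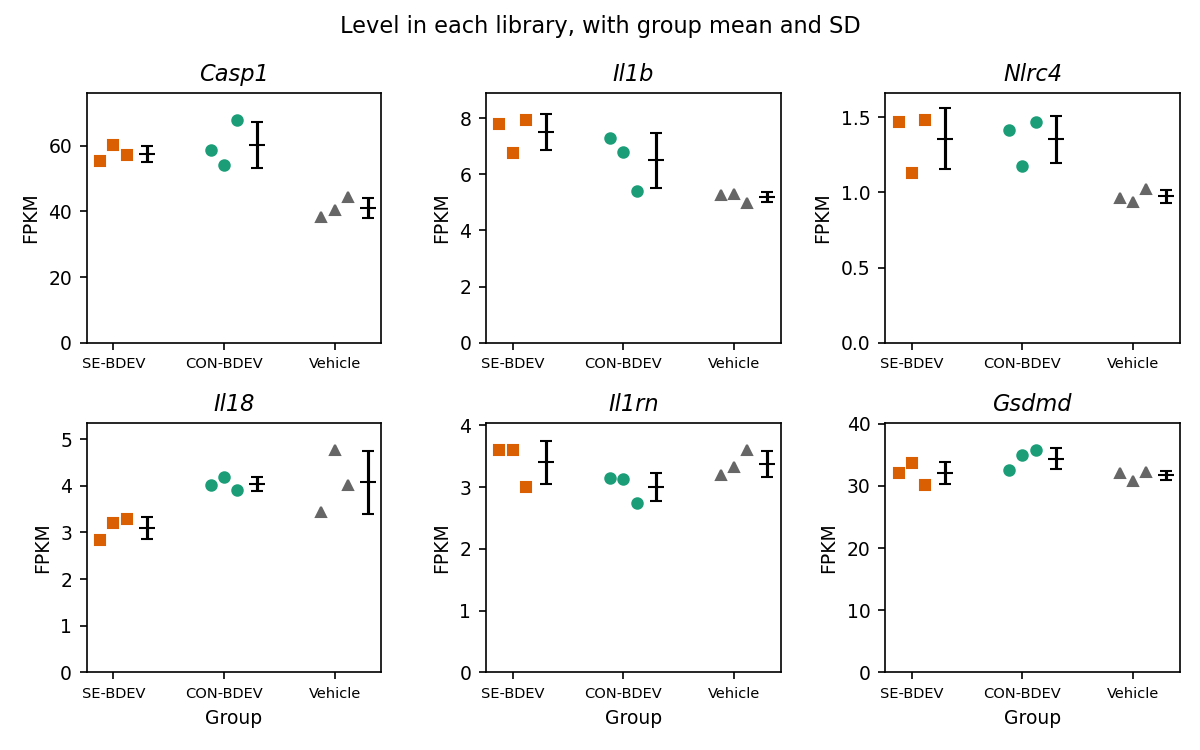
FPKM (linear axes, each gene on its own scale) of Casp1, Il1b, Nlrc4, Il18, Il1rn and Gsdmd in SE-BDEV, CON-BDEV and Vehicle, with points for libraries and bars for the mean ± SD (n = 3 each). All vesicle libraries exceed all Vehicle libraries for Casp1, Il1b and Nlrc4, the SE-BDEV libraries lie below the others for Il18, and the groups lie close together for Il1rn and Gsdmd.

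Among the cytokines, Il1b encodes interleukin 1 beta and lies at chr2:129190316-129201469 in mm9. Its FPKM was 7.79, 6.76 and 7.92 in SE-BDEV, 7.29, 6.80 and 5.41 in CON-BDEV, and 5.28, 5.30 and 4.97 in Vehicle. All vesicle libraries were above all Vehicle libraries, with CON-BDEV replicate 3 close to them. Il1b averaged 7.49 ± 0.637 FPKM in SE-BDEV, 6.50 ± 0.973 in CON-BDEV and 5.18 ± 0.185 in Vehicle (SD, n = 3 each). It rose in SE-BDEV, with a log2 fold change of 0.46 (standard error 0.0655, 95% interval 0.31 to 0.60, adjusted p = 0.00313) or 1.37-fold on the log2(FPKM + 1) scale. In CON-BDEV the log2 fold change was 0.27 (standard error 0.0925, 95% interval 0.06 to 0.48, adjusted p = 0.122), which did not pass. Without CON-BDEV replicate 3 it did, with an adjusted p of 0.0442. The difference between the vesicle groups was 0.19 for SE-BDEV over CON-BDEV (95% interval -0.02 to 0.39, adjusted p = 0.999), so the response of Il1b was not shown to differ between the preparations.

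Il1a, which encodes interleukin 1 alpha, lies at chr2:129123106-129135708 in mm9. It was 11.4, 10.6 and 9.32 FPKM in SE-BDEV, 8.15, 11.5 and 9.998 in CON-BDEV, and 11.6, 10.8 and 10.1 in Vehicle. The groups overlapped throughout, and the log2 fold change was -0.05 in SE-BDEV (adjusted p = 0.690) and -0.13 in CON-BDEV (95% interval -0.37 to 0.11, adjusted p = 0.487). Beside Il1b, which encodes the other cytokine of the same receptor, Il1a was thus higher in level and did not pass in either preparation. Il1rn, at chr2:24192380-24207011, encodes the receptor antagonist. It was 3.60, 3.60 and 3.00 FPKM in SE-BDEV, 3.15, 3.12 and 2.75 in CON-BDEV, and 3.20, 3.33 and 3.60 in Vehicle. SE-BDEV overlapped Vehicle (log2 fold change 0.0065, adjusted p = 0.965), and CON-BDEV lay below Vehicle without passing (-0.13, adjusted p = 0.327).

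Il18 encodes interleukin 18, the other cytokine precursor that caspase 1 cuts, and lies at chr9:50373473-50389942 in mm9. It was 2.84, 3.20 and 3.28 FPKM in SE-BDEV, 4.01, 4.20 and 3.90 in CON-BDEV, and 3.43, 4.77 and 4.02 in Vehicle. The SE-BDEV libraries lay below all others, and CON-BDEV lay within the range of Vehicle. Il18 averaged 3.10 ± 0.236 FPKM in SE-BDEV, 4.04 ± 0.148 in CON-BDEV and 4.07 ± 0.670 in Vehicle (SD, n = 3 each). The log2 fold change over Vehicle was -0.30 in SE-BDEV (95% interval -0.52 to -0.08, unadjusted p = 0.0120 and adjusted p = 0.0770 by limma) and -0.0026 in CON-BDEV (adjusted p = 0.989). For SE-BDEV over CON-BDEV it was -0.30 (95% interval -0.50 to -0.10), with an unadjusted p of 0.00754 and an adjusted p of 0.991 by limma. Il18 was the 1 of 9 members whose vesicle groups did not overlap, beside 7.94% of all genes (2.74% higher and 5.19% lower). Il18 rested on about 76 to 138 fragments per library. Without Vehicle replicate 1, its comparison of SE-BDEV with Vehicle reached an adjusted p of 0.0460.

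Among the sensors, Nlrc4 encodes a sensor that responds with NAIP proteins to bacterial flagellin and secretion system proteins, and lies at chr17:74825635-74858448. It was 1.47, 1.13 and 1.48 FPKM in SE-BDEV, 1.42, 1.18 and 1.47 in CON-BDEV, and 0.959, 0.939 and 1.02 in Vehicle. Every vesicle library lay above every Vehicle library. The log2 fold change was 0.25 in SE-BDEV (95% interval 0.05 to 0.46, adjusted p = 0.103) and 0.25 in CON-BDEV (adjusted p = 0.120), and neither passed. Adding 1 to values near 1 FPKM compresses their fold changes. With 0.1 added in its place the log2 fold change was 0.43 in each preparation, with adjusted p values of 0.105 for SE-BDEV and 0.123 for CON-BDEV. The authors' deposited table gives 0.48 with a Cuffdiff q of 0.0265 for SE-BDEV and 0.48 with a q of 0.0429 for CON-BDEV. The mean of Nlrc4 was under 1 FPKM in Vehicle, so it entered the test through the vesicle groups.

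Nlrp3 encodes the sensor that responds to many signs of cell damage and lies at chr11:59356188-59380458. It was 5.98, 5.85 and 5.09 FPKM in SE-BDEV, 4.93, 6.57 and 5.71 in CON-BDEV, and 5.55, 5.24 and 5.91 in Vehicle. All groups overlapped, and the log2 fold change was 0.014 in SE-BDEV (adjusted p = 0.918) and 0.031 in CON-BDEV (adjusted p = 0.872). Pycard, at chr7:135134887-135137381, encodes ASC, the adaptor between sensors and caspase 1. It averaged 0.154 ± 0.0675 FPKM in SE-BDEV, 0.117 ± 0.0358 in CON-BDEV and 0.140 ± 0.0103 in Vehicle (SD, n = 3 each), which is about 7 to 15 fragments per library. At that depth a difference between groups was not detectable, and the authors' deposited table likewise gives no test for it.

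**Figure D3:**
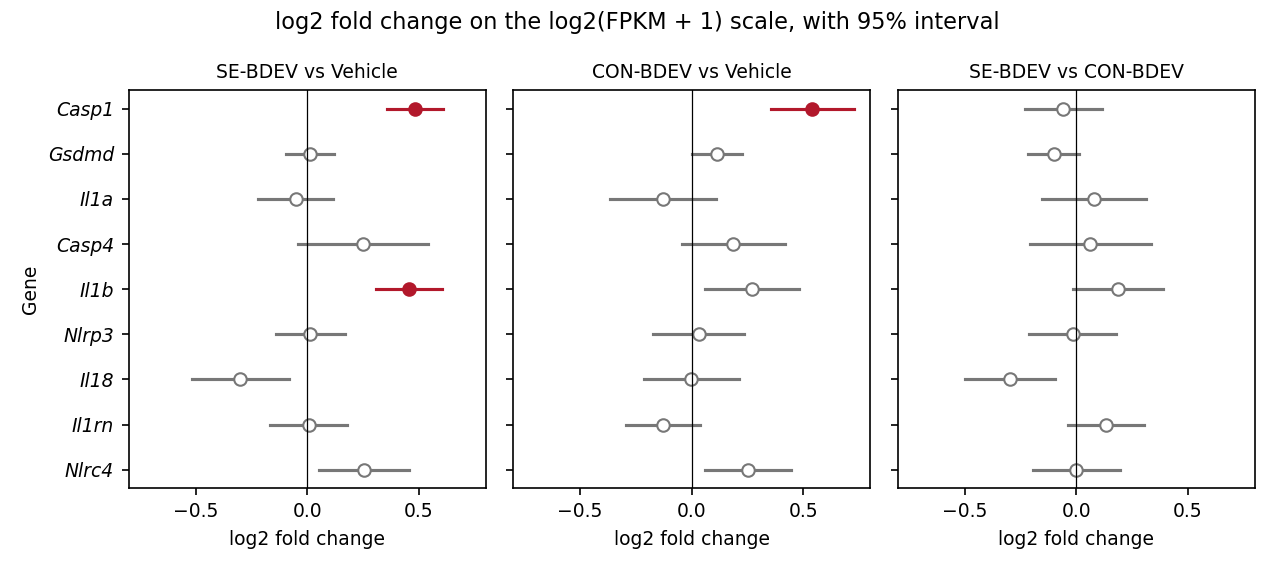
Log2 fold change on the log2(FPKM + 1) scale for the 9 tested members in SE-BDEV over Vehicle, CON-BDEV over Vehicle and SE-BDEV over CON-BDEV, with lines for 95% intervals and filled red points for an adjusted p under 0.05. Casp1 (0.48) and Il1b (0.46) are filled for SE-BDEV, Casp1 (0.54) is filled for CON-BDEV, and no point is filled between the preparations.

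Nlrc4, which could enter the test only by being higher, is left out of the following counts of members. Groups did not overlap for 3 of 8 members in SE-BDEV against Vehicle (Il1b and Casp1 higher, Il18 lower), beside 32.8% of all genes (16.5% higher and 16.3% lower). These same 3 members had an unadjusted p under 0.05, beside 27.4% of all genes. Groups did not overlap for 4 of 8 members in CON-BDEV against Vehicle (Il1b, Casp1 and Gsdmd higher, Il1rn lower), beside 29.3% of all genes (16.6% higher and 12.7% lower). There 3 members (Il1b, Casp1 and Gsdmd) had an unadjusted p under 0.05, beside 23.5% of all genes. Between SE-BDEV and CON-BDEV, the log2 fold change of Casp1 was -0.06 (95% interval -0.23 to 0.11) and that of Gsdmd was -0.10 (95% interval -0.21 to 0.01). It was 0.13 for Il1rn (95% interval -0.04 to 0.30), and that of Nlrc4 was 0.00058 (95% interval -0.19 to 0.20).

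Library names carry a number, 1 or 2, before a code: number 1 holds 1 SE-BDEV, 1 CON-BDEV and 2 Vehicle libraries, and number 2 holds 2 SE-BDEV, 2 CON-BDEV and 1 Vehicle library. Within libraries of number 1, Casp1 differed from Vehicle by 0.49 in SE-BDEV and 0.57 in CON-BDEV on the log2(FPKM + 1) scale, and within number 2 by 0.40 in SE-BDEV and 0.44 in CON-BDEV. Il1b differed by 0.48 in SE-BDEV and 0.40 in CON-BDEV within number 1, and by 0.48 in SE-BDEV and 0.24 in CON-BDEV within number 2. For Il18 the SE-BDEV difference was -0.40 within number 1 and -0.24 within number 2. These are values without a test, as 1 arm of each comparison holds a single library. The authors' deposited table gives log2 fold changes of 0.49 for Casp1 and 0.53 for Il1b in SE-BDEV, each with a Cuffdiff q of 0.00196. For CON-BDEV the authors' deposited table gives 0.55 for Casp1 (q = 0.00245) and 0.33 for Il1b (q = 0.205).

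Beyond the 10 members, 53 other genes of the pathway were followed in 6 lists. Of these 33 could be tested in SE-BDEV and 32 in CON-BDEV, and in each preparation 2 rose over Vehicle and none fell. That is 6.06% in SE-BDEV, beside 11.9% of all genes called, and 6.25% in CON-BDEV, beside 5.67%, so the share was below the background in SE-BDEV and near it in CON-BDEV. Over the 32 genes tested in both, the median log2 fold change was 0.024 in SE-BDEV and 0.011 in CON-BDEV. Those that rose were Panx1 and Ninj1 in each preparation. None of the 33 tested between SE-BDEV and CON-BDEV passed.

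Panx1 encodes pannexin 1, a membrane channel that releases ATP, a signal that can set off NLRP3. It was 16.5, 15.3 and 17.6 FPKM in SE-BDEV, 16.7, 14.5 and 17.0 in CON-BDEV, and 11.9, 12.1 and 11.5 in Vehicle. All vesicle libraries lay above all Vehicle libraries. Its log2 fold change was 0.44 in SE-BDEV (adjusted p = 0.00144) and 0.41 in CON-BDEV (adjusted p = 0.0117). The CON-BDEV call was lost without CON-BDEV replicate 3 (adjusted p = 0.0535) and without Vehicle replicate 1, 2 or 3 (0.0546, 0.0507 and 0.0592).

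Ninj1 encodes ninjurin 1, which ruptures the plasma membrane late in lytic cell death. It was 151, 141 and 165 FPKM in SE-BDEV, 171, 150 and 157 in CON-BDEV, and 118, 121 and 113 in Vehicle. Again every vesicle library lay above every Vehicle library. The log2 fold change was 0.37 in SE-BDEV (adjusted p = 0.00342) and 0.44 in CON-BDEV (adjusted p = 0.00434).

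Of 9 receptors and decoys, 5 were tested in SE-BDEV and 4 in CON-BDEV, and none passed. Il1rap, the accessory chain of the interleukin 1 receptor, averaged 5.56 ± 0.675 FPKM in SE-BDEV, 5.37 ± 0.606 in CON-BDEV and 4.49 ± 0.211 in Vehicle (SD, n = 3 each), with log2 fold changes of 0.25 (adjusted p = 0.0647) in SE-BDEV and 0.21 (adjusted p = 0.151) in CON-BDEV. Il1rl1, the interleukin 33 receptor, averaged 2.83 ± 0.501 in SE-BDEV, 2.80 ± 0.107 in CON-BDEV and 2.24 ± 0.124 in Vehicle (SD, n = 3 each), with log2 fold changes of 0.24 (adjusted p = 0.149) and 0.23 (adjusted p = 0.0883) for the same preparations. Over the 4 receptors and decoys with a mean of at least 1 FPKM in every group, the median log2 fold change was 0.20 in SE-BDEV and 0.16 in CON-BDEV. Over all genes tested it was -0.00080 in SE-BDEV and 0.0054 in CON-BDEV. The 5th, Il1rl2, entered the SE-BDEV test through the vesicle group alone. Il1rap passed in SE-BDEV without SE-BDEV replicate 3 (adjusted p = 0.0338) and in CON-BDEV without CON-BDEV replicate 1 (adjusted p = 0.0325). Il1r1, the signalling receptor of interleukin 1, was under the minimum mean, at 1.04 FPKM in SE-BDEV, 1.11 in CON-BDEV and 0.843 in Vehicle. The decoy receptor Il1r2 was far under it, with a lower mean in both vesicle groups than in Vehicle. It averaged 0.108 ± 0.0771 FPKM in SE-BDEV, 0.0869 ± 0.0268 in CON-BDEV and 0.266 ± 0.0939 in Vehicle (SD, n = 3 each). The SE-BDEV libraries of Il1r2 overlapped those of Vehicle. Neither Il1r1 nor Il1r2 was tested.

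All 12 adaptors and kinases downstream of the receptors were tested and none passed, with a median log2 fold change of 0.039 in SE-BDEV and 0.020 in CON-BDEV. Myd88, their shared adaptor, had a log2 fold change of 0.079 in SE-BDEV (adjusted p = 0.256) and 0.062 in CON-BDEV (adjusted p = 0.547). For the kinase Irak1 it was 0.037 in SE-BDEV (adjusted p = 0.588) and 0.019 in CON-BDEV (adjusted p = 0.855). Of 11 other sensors, 5 were tested and none passed. Among these, Aim2, a sensor of cytosolic DNA, averaged 39.7 ± 3.38 FPKM in SE-BDEV, 40.2 ± 3.11 in CON-BDEV and 36.3 ± 1.55 in Vehicle (SD, n = 3 each); its adjusted p was 0.242 in SE-BDEV, 0.0296 there without SE-BDEV replicate 3, and 0.208 in CON-BDEV. Naip2, which passes bacterial ligands to NLRC4 and has close paralogs that could share its reads, had log2 fold changes of -0.12 in SE-BDEV (adjusted p = 0.135) and -0.15 in CON-BDEV (adjusted p = 0.133).

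Of 9 regulators of activation, 7 were tested and Panx1 was the 1 that passed. Of 6 other caspases and pore or rupture proteins, 4 were tested and Ninj1 was the 1 that passed. None of the 6 other interleukin 1 cytokines reached the minimum mean. Il36g, listed under its older symbol Il1f9, was the 1 above 0 in any library. It averaged 0.144 ± 0.0980 FPKM in SE-BDEV, 0.0965 ± 0.0552 in CON-BDEV and 0.0579 ± 0.0475 in Vehicle (SD, n = 3 each), and the groups overlapped one another.

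**Figure D4:**
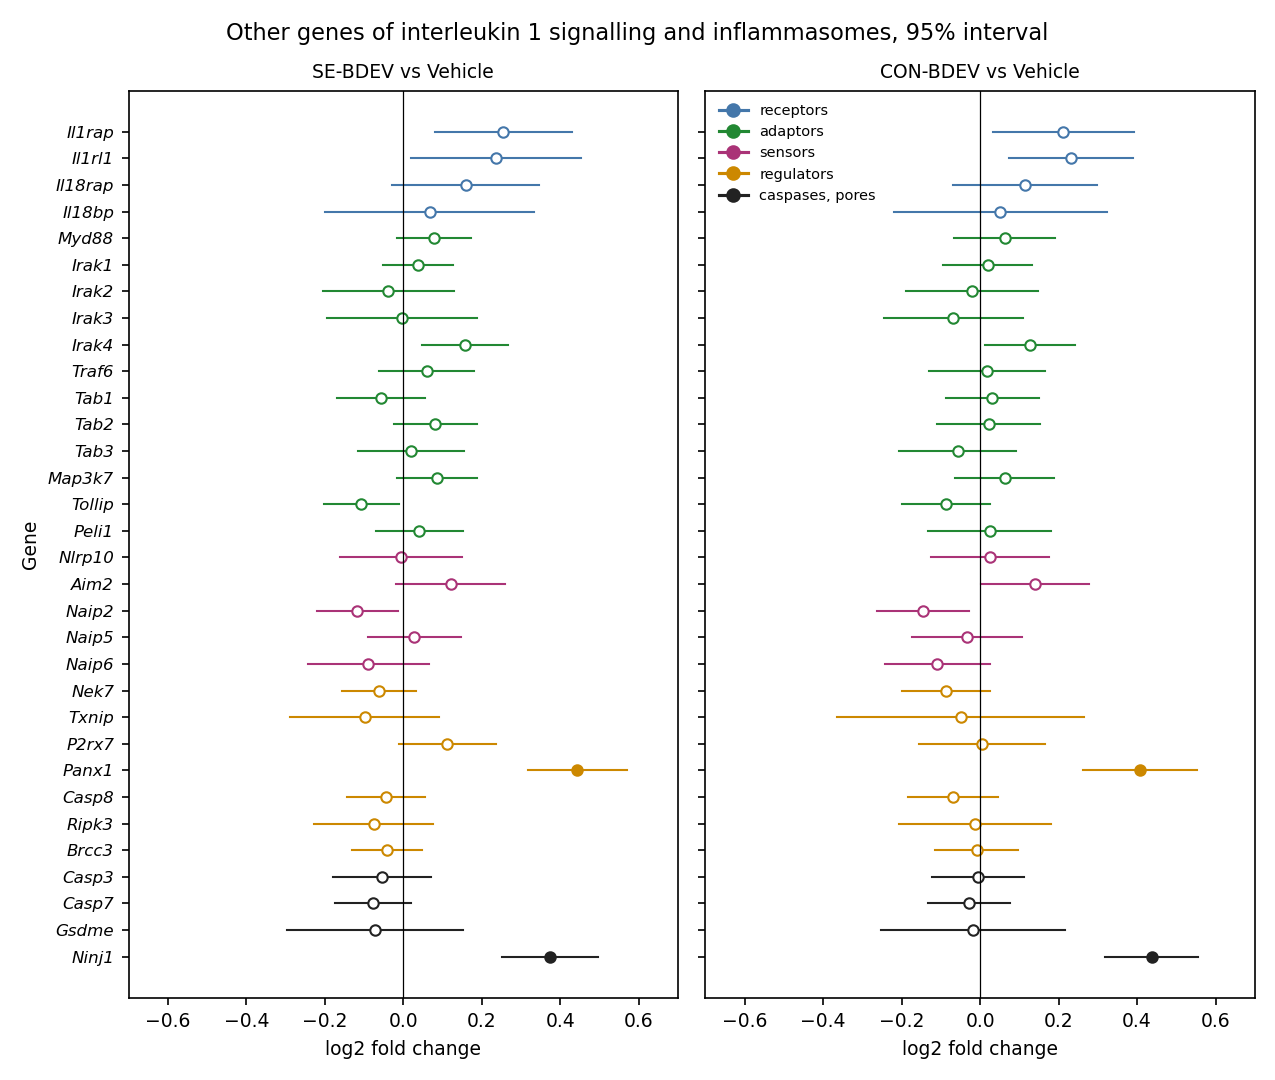
Log2 fold change over Vehicle on the log2(FPKM + 1) scale for the 32 other pathway genes tested in both comparisons, SE-BDEV and CON-BDEV, coloured by list, with lines for 95% intervals and filled points for an adjusted p under 0.05. Panx1 (0.44 in SE-BDEV, 0.41 in CON-BDEV) and Ninj1 (0.37 and 0.44) are the filled points, and both comparisons share their Vehicle libraries.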

How the data were processed

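RNA of 9 libraries was polyA-selected and sequenced after a directional library kit, per the labels' protocols. TopHat2, Cuffdiff and genome build mm9 are named in the submitters' processing notes. Versions, their roles and the gene annotation are not given in the sources used here. The deposited FPKM tables hold 1 value per gene and library, in 1 table for SE-BDEV with Vehicle and 1 for CON-BDEV with Vehicle. From Cuffdiff, per the file headers, the authors also deposited each gene's log2 fold change, test score, p-value and q-value. The same 3 Vehicle libraries are in both FPKM tables and differ by constant factors of 1.00042, 1.00012 and 1.00078; SE-BDEV values were divided by their geometric mean before the tables were joined.

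FPKM values are not counts, so log2(FPKM + 1) was analysed with R 4.3.3 and limma 3.58.1 (eBayes with a mean-variance trend, 2-sided) on all genes that averaged 1 FPKM or more in the fit. SE-BDEV and CON-BDEV were each fitted with Vehicle from 1 table, and were set against each other in a fit of the 9 joined libraries. Benjamini-Hochberg adjustment ran over every gene tested, with a threshold of 0.05. For 1 gene alone, exact permutation of 3 against 3 libraries reaches no p under 0.1. Genes that Cuffdiff left unestimated for too many fragments were left out. The fits were also run on simulated data with independent normal noise, at each gene's spread in these libraries. Such data hold no batch and no technical replicates, so the simulation cannot speak to either.

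The files hold no read counts. Depth was estimated from the steps between values under 0.05 FPKM in genes with at least 4000 nt of exons, and fragment numbers are approximate. Summed FPKM ran from 600196 to 625660 and 10486 to 10561 genes reached 1 FPKM per library.

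The 10 members and the pathway and marker lists were chosen with earlier results of these data known. Named pathway genes are those past the threshold in any comparison or, where a list has none, its 2 genes of highest mean. Il1r1, Il1r2 and Il36g were named after their values were seen. Alternatives were the pseudocount, the filter, quantile normalization, no trend, the other fit, the library-name number as a term, the replicate number as a block and leaving out each library. Promoter sequences are from RefSeq, build GRCm38.p6, and loci are mm9 as the files give them, counted from 1.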

Additional observations from a re-analysis of the deposited data

How the results depend on the processing

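In 15 alternatives, Casp1, Il1b, Panx1 and Ninj1 passed in SE-BDEV over Vehicle each time, and so did Ninj1 in CON-BDEV. Panx1 passed in CON-BDEV in 10 of 15, with an adjusted p of 0.0566 when no filter on low values was used. Calls gained among the pathway genes named were Il1rl1 in CON-BDEV with no trend (adjusted p = 0.0454), Il1rap in SE-BDEV without SE-BDEV replicate 3 (0.0338), Il1rap in CON-BDEV without CON-BDEV replicate 1 (0.0325) and Aim2 in SE-BDEV without SE-BDEV replicate 3 (0.0296). Casp1 passed in CON-BDEV over Vehicle in 12 of 15: its adjusted p ran from 0.00358 to 0.0599, with 0.0599 when no filter on low values was used, which tests more genes. The count of members past the threshold in CON-BDEV was then 0, against 1 as reported, and leaving out 1 library gave 0 to 2. For SE-BDEV the count of members was 3 with the replicate block (Il18 added, adjusted p = 0.0451) and 3 with no trend (Nlrc4 added, adjusted p = 0.0476), and leaving out 1 library gave 2 to 3. The labels do not say whether replicate numbers pair libraries. The mean correlation of same-numbered libraries was -0.0397 and 3 of 9 were closest to their own number. These values give no sign of pairing and cannot exclude it. With the replicate block 1 member passed in CON-BDEV, 0 passed between the preparations, and 364 genes in all passed in CON-BDEV against 597 without it. No filter on low values gave 112 genes in all for CON-BDEV and 726 for SE-BDEV, against 1253 as reported; the library-name number as a term gave 275 for CON-BDEV, and the other choice of libraries in the fit gave 830 for SE-BDEV. Leaving out 1 library gave 84 (without Vehicle replicate 2) to 1067 (without CON-BDEV replicate 1) genes for CON-BDEV, with 905 without CON-BDEV replicate 2, 133 without CON-BDEV replicate 3, and 110 and 121 without Vehicle replicates 1 and 3. For SE-BDEV it gave 501 to 1311, with 501, 601 and 678 without Vehicle replicates 1, 2 and 3. Between the preparations it gave 0 to 1, and no trend gave 1. The share of members called has to be read beside these moving backgrounds.

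Signs changed for differences near 0, none of which passed. Under quantile normalization the CON-BDEV log2 fold change over Vehicle was 0.015 for Il18 and -0.0069 for Irak1, and Nlrc4 was -0.010 for SE-BDEV over CON-BDEV (-0.00063 with 0.1 FPKM added). With the library-name number as a term, Nlrp3 was -0.032 in CON-BDEV and Il1a 0.0022 in SE-BDEV. Leaving out 1 library gave log2 fold changes in CON-BDEV of -0.096 to 0.094 for Il18, -0.057 to 0.12 for Nlrp3 and -0.021 to 0.046 for Irak1. In SE-BDEV it gave -0.11 to 0.020 for Il1a, -0.027 to 0.074 for Il1rn, -0.023 to 0.074 for Nlrp3 and -0.025 to 0.053 for Gsdmd. For SE-BDEV over CON-BDEV it gave -0.042 to 0.18 for Il1a, -0.13 to 0.030 for Casp1, -0.063 to 0.17 for Casp4, -0.10 to 0.071 for Nlrp3 and -0.055 to 0.073 for Nlrc4. A minimum mean of 5 FPKM gives no value for Il18, Il1rn and Nlrc4. Pycard and Il18 had the fewest fragments among the members, and how far depth limits their results was not tested.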

Other observations

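The FPKM ratios of 4 pairs of members were computed in each library after the values had been seen, so they are a description with no test. Il1b by itself was higher in every vesicle library than in every Vehicle library, and Il18 was lowest in the SE-BDEV libraries. Ratios with Il1b carry these differences over and are not separate evidence. The FPKM ratio of Il1b to its receptor antagonist Il1rn was 2.16, 1.88 and 2.64 in SE-BDEV, 2.31, 2.18 and 1.97 in CON-BDEV, and 1.65, 1.59 and 1.38 in Vehicle. Every vesicle library lay above every Vehicle library, and the vesicle groups overlapped. The ratio of Il1b to Il18 was 2.75, 2.11 and 2.42 in SE-BDEV, 1.82, 1.62 and 1.39 in CON-BDEV, and 1.54, 1.11 and 1.24 in Vehicle. SE-BDEV lay above the other groups in every library, and CON-BDEV overlapped Vehicle. The ratio of Il1b to Il1a was 0.682, 0.640 and 0.851 in SE-BDEV, 0.894, 0.590 and 0.541 in CON-BDEV, and 0.456, 0.488 and 0.492 in Vehicle, with every vesicle library above every Vehicle library. The ratio of Casp1 to Casp4 was 8.23, 7.11 and 9.70 in SE-BDEV, 9.39, 7.67 and 10.3 in CON-BDEV, and 5.99, 8.73 and 7.11 in Vehicle, and here both vesicle groups overlapped Vehicle.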
